A study of Mus musculus with 4 samples.

Results

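The 7 genes described here, H2-Aa, H2-Ab1, H2-Eb1, Cd74, H2-DMa, H2-DMb1 and Ciita, are genes of the MHC class II pathway. They were chosen by name and read from 2 deposited marker tables, and all 7 were present among the 3488 genes that appear in at least 1 of them. The tables came from droplet-based single-cell RNA sequencing of group 2 innate lymphoid cells (ILC2s), tissue lymphocytes that carry no antigen receptor and release type 2 cytokines. Wild-type BALB/c mice aged 8 weeks were given intraperitoneal PBS or recombinant IL-33 (rIL-33, 0.5 µg) on each of 5 days, and cells negative for lineage proteins (CD3e, Ly6G, Ly6c, CD11b, CD45R, TER119, TCRb) and positive for CD127, Thy1 and ST2 were sorted from the liver and the lung. This gave 4 groups of 1 library each: PBS liver, PBS lung, rIL-33 liver and rIL-33 lung. All 4 groups thus share strain, genotype, age and gate, and each library came from tissue pooled over several mice.

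MHC class II molecules are pairs of an alpha and a beta chain that display peptides from engulfed material to CD4 T cells. In the mouse, H2-Aa and H2-Ab1 encode the chains of the I-A molecule and H2-Eb1 encodes the beta chain of I-E. Cd74 encodes the invariant chain, which fills the groove while the molecule travels to the endosome, and H2-DMa and H2-DMb1 encode the H2-M dimer that exchanges the last fragment of the invariant chain for peptide. Ciita encodes the coactivator on which transcription of these genes depends. B cells, dendritic cells and macrophages are the cells best known for class II expression, and ILC2s are also known to be able to carry it.

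Both tables pool the 4 libraries. The cell type table sets 21 types, as the authors named them, each against the remaining cells, and the ILC2 subcluster table does the same for 10 subclusters of ILC2s, numbered from 0. For a gene in a cluster, here called a listing, a table gives how many of the cluster's cells had a value above 0, as a share, and the same share in all other cells. Neither table holds a value for a single library, a sequencing depth or a number of cells, so PBS and rIL-33 or liver and lung could not be compared, and no test was made: all that follows describes shares in 1 pool of cells. Each table is read here as listing genes higher in a cluster, though no average was used. A missing listing does not tell a gene that is lower there from one that is unchanged, too rare or not tested. Out of 2000 features, 1679 genes made up the 4422 listings of the cell type table, and out of 14354 features, 2629 genes made up the 3745 listings of the subcluster table.

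In the annotation of mouse build GRCm38, 5 of the 7 genes lie within 197 kb of chromosome 17. H2-DMa lies at chr17:34119541-34139101 (plus strand), H2-DMb1 at chr17:34153072-34160230 (plus strand), H2-Ab1 at chr17:34257689-34269419 (plus strand), H2-Aa at chr17:34282744-34287823 (minus strand) and H2-Eb1 at chr17:34305867-34316674 (plus strand). Ciita lies at chr16:10480059-10528418 (plus strand). The position of Cd74 is not reported here. The other 6 genes are annotated as protein coding. BALB/c mice carry other class II alleles than the C57BL/6 reference, and H2-DMb1 has a close paralog, H2-DMb2 (chr17:34143307-34151555), with which it may share reads. The part of either in the shares was not tested.

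The promoters of class II genes are known to share an upstream module with an X box and a Y box, to which the factors that recruit the Ciita product bind. RefSeq promoter entries (GRCm38.p6) were matched for 4 of the 7 genes: H2-Aa, H2-Eb1, H2-DMa and H2-DMb1. The stretches of H2-Aa (chr17:34287854-34287933, minus strand) and H2-Eb1 (chr17:34305757-34305836, plus strand) are shown as examples of classical chain genes listed for the same main cell types. Each runs 5′ to 3′ from 110 to 31 bases before the RefSeq start, and capitals mark the motifs ATTGG, TGACGTCA and TGATGATG on either strand.
H2-Aa: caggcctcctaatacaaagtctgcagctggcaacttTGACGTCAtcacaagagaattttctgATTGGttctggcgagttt
H2-Eb1: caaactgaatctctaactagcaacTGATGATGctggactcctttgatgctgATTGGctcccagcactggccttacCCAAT

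ATTGG, the core letters of a Y box, stood 48 to 44 bases before the start in H2-Aa, 59 to 55 in H2-Eb1 and 61 to 57 in H2-DMb1. H2-Eb1 held it a second time on the opposite strand, 35 to 31 bases before the start. TGATGATG, a motif chosen after the sequences were seen, stood 86 to 79 bases before the start in H2-Eb1 and 89 to 82 in H2-DMb1. The stretch of H2-DMb1 overlaps an annotated exon and is not printed. TGACGTCA stood 74 to 67 bases before the start in H2-Aa. H2-DMa has 2 start sites in RefSeq, and of the 3 motifs only ATTGG was found, 198 to 194 bases before the second start. Over all 32851 promoters of 300 bases, 37.4% held ATTGG, 1.79% held TGACGTCA and 1.44% held TGATGATG, so ATTGG alone is common.

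The 7 genes had 20 listings in the cell type table, spread over 5 of the 21 types, and 16 types listed none. The cells named Macrophage and those named Plasma cell each listed 7 of 7. The cells named MMP_LMPP listed 4 of 7, namely H2-Aa, H2-Ab1, H2-Eb1 and Cd74, the cells named Endothelium cell listed H2-Ab1 alone, and those named ILC1_ILC3 listed H2-Eb1 alone. Of the 2000 features, 84.0% were listed for at least 1 type, so 7 of 7 genes being present says little. By type, 14.6% of features were listed for Macrophage, 10.2% for Plasma cell, 20.1% for MMP_LMPP, 19.9% for Endothelium cell and 11.2% for ILC1_ILC3. The counts of 7 of 7 for Macrophage and Plasma cell and 4 of 7 for MMP_LMPP stood above these shares, and the single genes of Endothelium cell and ILC1_ILC3 did not stand far from them.

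**Figure D1:**
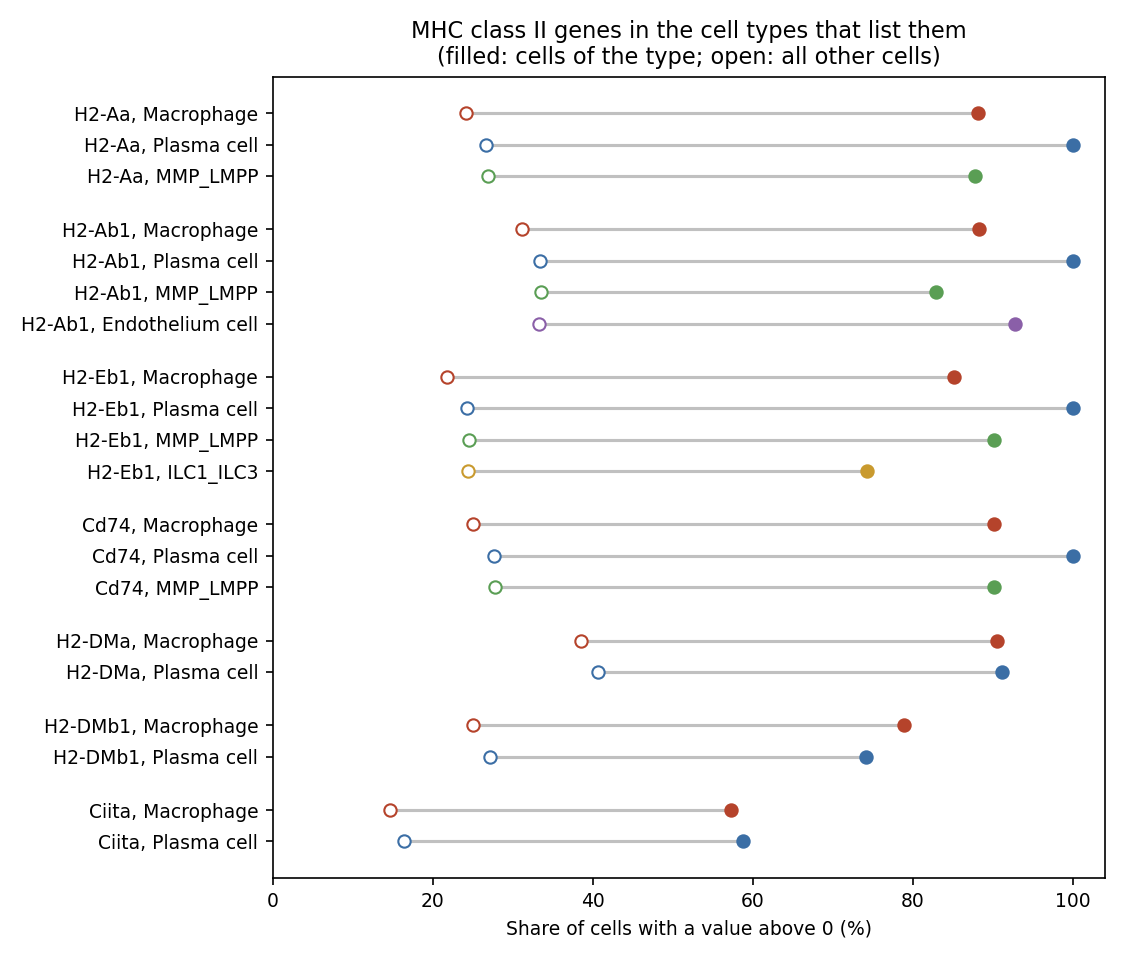
Cells with a value above 0 (horizontal axis, share in %) for each listing of the 7 genes in the cell type table; filled points are the cells of the type and open points all other cells. Inside the types the shares run from 57.3% for Ciita in Macrophage to 100% for 4 genes in Plasma cell, and every filled point lies to the right of its open point.

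The names of 4 of the 5 types were checked against marker lists. The cells named Plasma cell listed 11 of 12 B cell markers, Ms4a1 (93.5% of cells against 13.2% of all others), Cd79a (100% against 27.6%) and Pax5 (80.0% against 6.3%) among them. They listed 4 of 9 plasma cell markers, while 6 of the 9 were listed for any type. Sdc1 and Prdm1 were listed for other types only. Jchain was listed for no type, so its absence here says nothing. The data thus go against the name, which is kept here only as the table's label. The cells named Macrophage listed 6 of 20 macrophage markers, such as Lyz2 (98.5% against 42.3%) and Cd68 (94.6% against 43.0%). Only 8 of the 20 were listed for any type. Csf1r, Adgre1 and C1qa were listed for none and may not have been tested. Of 14 dendritic cell markers, 6 were listed for any type and 4 for Macrophage, such as Irf8 (98.0% against 50.9%) and Batf3 (44.1% against 8.0%). The cells named Macrophage also listed 3 of 12 B cell markers, Ighm (96.6% against 63.7%), Ly6d (63.3% against 22.2%) and Cd79b (55.0% against 27.9%). They listed 3 of 9 plasma cell markers, Mzb1 (54.5% against 17.5%) among them. These markers do not settle the name, which is kept as the table's label. MMP_LMPP listed 5 of 12 B cell markers, Ebf1 at 94.3% against 23.3% among them, 3 of 9 plasma cell markers, 3 of 20 macrophage markers, Itgam at 74.0% against 45.8% among them, and 2 of 14 dendritic cell markers. No list of progenitor markers was read, so its name was not checked. Endothelium cell listed 5 of 11 endothelial markers, Cdh5 at 93.6% against 15.6% among them, while 6 of the 11 were listed for any type. ILC1_ILC3 listed 6 of 9 ILC3 markers and 4 of 8 markers of NK cells and ILC1s. The sort gate was negative for CD45R, carried by B cells, and for CD11b, carried by many macrophages.

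These 5 types were small. Their sizes were solved from the shares themselves: Macrophage held 4.59% ± 0.00565 (SE of the fit) of all cells, Endothelium cell 0.805% ± 0.00600, ILC1_ILC3 0.592% ± 0.00996, Plasma cell 0.542% ± 0.00889 and MMP_LMPP 0.387% ± 0.00627. The type named ILC2 held 43.2% of cells, and a smaller type named ILC2_2 held 1.78%. Neither of the ILC2 types listed any of the 7 genes.

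Among the classical chains, H2-Aa was above 0 in 100% of Plasma cell, 88.2% of Macrophage and 87.8% of MMP_LMPP cells, against 26.7%, 24.2% and 26.9% of the cells outside each. Its share was thus 60.9 to 73.3 percentage points higher inside than outside. H2-Eb1 was above 0 in 100% of Plasma cell, 90.2% of MMP_LMPP, 85.1% of Macrophage and 74.3% of ILC1_ILC3 cells. Outside those types the H2-Eb1 shares were 24.3%, 24.5%, 21.8% and 24.4%. Its difference in Plasma cell, 75.7 percentage points, was the highest of the 20 listings. In ILC1_ILC3 the H2-Eb1 difference of 49.9 percentage points ranked 4 of 225 genes in that list, 3 when ordered by the ratio of shares and 21 by the odds ratio.

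H2-Ab1, the I-A beta chain, was the most widely detected of the classical chains. Its share was 100% in Plasma cell, 92.8% in Endothelium cell, 88.3% in Macrophage and 82.9% in MMP_LMPP. In the cells outside each type it was 33.4%, 33.3%, 31.1% and 33.5%. With this higher level outside, its ratios of shares, 2.47 to 2.99, were the lowest of the classical chains, whose other ratios ran from 3.05 to 4.12. Endothelium cell listed H2-Ab1 at a difference of 59.5 percentage points (93 of 397 genes), without its I-A partner H2-Aa.

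Among the loading partners, Cd74 was close to H2-Aa in the 3 types that listed both. It was above 0 in 100% of Plasma cell, 90.2% of Macrophage and 90.2% of MMP_LMPP cells, against 27.6%, 25.0% and 27.8% outside. H2-DMa was above 0 in 91.2% of Plasma cell and 90.5% of Macrophage cells. Its shares outside, 40.6% and 38.5%, were the highest of the 7 genes, and its ratios of 2.25 and 2.35 were the lowest of the 20 listings. H2-DMb1 was above 0 in 78.9% of Macrophage and 74.1% of Plasma cell cells, against 25.0% and 27.2% outside. The H2-M genes were not listed for MMP_LMPP, where the classical chains and Cd74 were, although their paralog H2-DMb2 was (86.2% against 23.8%).

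Ciita, the coactivator, had the lowest shares of the 7 genes. It was above 0 in 58.8% of Plasma cell and 57.3% of Macrophage cells, against 16.4% and 14.7% outside. The ratios of 3.59 and 3.90 were nevertheless within the range of the classical chains. Ciita was not listed for MMP_LMPP, Endothelium cell or ILC1_ILC3.

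The median difference over the genes listed was 57.2 percentage points for the 7 in Macrophage, beside 41.7 over all genes of that list. In Plasma cell it was 66.6 beside 21.3, in MMP_LMPP, over 4 genes, 61.7 beside 29.8. By difference, H2-Eb1 ranked 7 of 204 in Plasma cell (15 by the ratio of shares and 1 by the odds ratio) and 8 of 403 in MMP_LMPP (60 by the odds ratio), while in Macrophage Cd74 ranked 37 (69 by the odds ratio) and Ciita 136 of 291 (35 by the ratio of shares). The members thus stood nearer the top of the Plasma cell list than of the Macrophage list. The clusters were made from expression in the same cells, and whether these 7 genes were used in it was not checked, so the differences describe the clusters and are no test of them.

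From the sizes and the shares, the share of each gene over all cells was solved. H2-DMa was above 0 in 40.9% of all cells, H2-Ab1 in 33.7%, Cd74 in 28.0%, H2-DMb1 in 27.5%, H2-Aa in 27.1%, H2-Eb1 in 24.7% and Ciita in 16.6%. The values from different listings of 1 gene lay within 0.0876 percentage points of each other, which is less than each gap between neighbours in this order, but no spread over libraries is known. The median over all genes of that table was 45.5%.

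Most cells with a value above 0 for these genes lay outside the types that listed them. High shares outside a type were not particular to these genes. Over all genes listed, the median share outside was 39.8% for Macrophage and 43.8% for Plasma cell. A value above 0 in this table should not be read as a transcript, so the shares below do not count expressing cells. Macrophage held 14.9% of the cells with H2-Aa, 12.0% of those with H2-Ab1, 15.8% of those with H2-Eb1, 14.8% of those with Cd74, 10.2% of those with H2-DMa, 13.2% of those with H2-DMb1 and 15.8% of those with Ciita. Plasma cell held 1.21% to 2.19%. All listing types together held from 11.4% (H2-DMa) to 21.2% (H2-Eb1) of the cells, which left 78.8% to 88.6% in types that did not list the gene. In those types the mean share was 38.2% for H2-DMa, 30.0% for H2-Ab1, 24.7% for H2-DMb1, 24.3% for Cd74, 23.5% for H2-Aa, 20.7% for H2-Eb1 and 14.4% for Ciita.

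**Figure D2:**
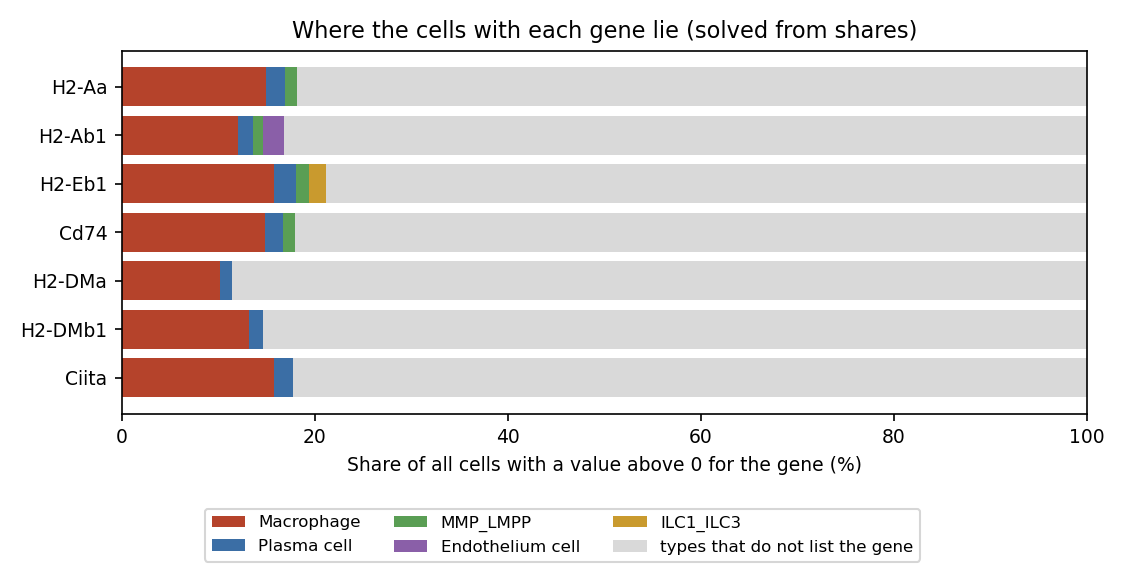
Share of all cells with a value above 0 for each gene (horizontal axis, %) held by each listing type (colours) and by the types that do not list it (grey), solved from the deposited shares. Grey takes 78.8% to 88.6% of every bar. A value above 0 in this table should not be read as a transcript.

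What the type named ILC2 itself held could be bounded only from above. If every remaining cell with H2-Aa were an ILC2, 51.3% of ILC2s would have it. The same limit was 65.0% for H2-Ab1, 45.1% for H2-Eb1, 53.2% for Cd74, 83.8% for H2-DMa, 54.2% for H2-DMb1 and 31.7% for Ciita. For all 7 genes this limit was below the share in Macrophage. The sources used here do not state from which form of the data (counts, or values integrated over libraries) the cell type table with its 2000 features was made. Its shares should therefore not be read as shares of cells with a transcript. In 719 of its 4422 listings, and in 1102 of the 3745 listings of the subcluster table, the share inside was lower than in other cells. If each listing is of a gene higher on average, a share and an average can point in opposite directions in either table. Of 116 genes listed both for ILC2 and for a subcluster, 112 had a higher ILC2 share in the cell type table than over all ILC2s of the subcluster table, with a median difference of 16.8 percentage points. For 97 of them the subcluster value was below what any share in ILC2_2 would allow. Shares of the tables are therefore not set on 1 scale. The part of RNA free in the droplets and of doublets in these shares was not tested.

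Within ILC2s, 2 of the 7 genes were listed, each for 1 subcluster, and 8 of 10 subclusters listed none. Of the 14354 features, 18.3% were listed for at least 1 subcluster, 5.59% for subcluster 4 and 1.76% for subcluster 8. H2-Ab1 was above 0 in 42.1% of subcluster 4 and 22.1% of all other ILC2s, a ratio of 1.90. H2-DMa was above 0 in 37.1% of subcluster 8 and 25.1% of all other ILC2s, a ratio of 1.48. In percentage points both differences were low for their lists. H2-Ab1 differed by 20.0 percentage points, beside a median of 34.1 over subcluster 4, and ranked 687 of 802. H2-DMa differed by 12.0, beside 18.9 over subcluster 8, and ranked 216 of 253. Ordered by the ratio of shares the ranks were 415 and 125, near the middle of the lists, and by the odds ratio 797 and 250.

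Over all ILC2s, H2-Ab1 was above 0 in 23.9% and H2-DMa in 25.2%, beside a median of 40.7% over all genes listed in that table. Subcluster 4 (9.23% ± 0.0113 of ILC2s) held 16.2% of the ILC2s with H2-Ab1, and subcluster 8 (0.668% ± 0.0164) held 0.984% of those with H2-DMa. Most ILC2s with either gene thus lay in other subclusters. No subcluster listed H2-Aa, H2-Eb1, Cd74, H2-DMb1 or Ciita, so neither chain partner of H2-Ab1 and H2-DMa, nor their coactivator, was listed beside them.

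Subcluster 4 listed 8 of 9 proliferation markers, Mki67 in 54.7% against 15.0% and Top2a in 71.5% against 26.2%. In the cell type table the cells named Prolifelation cell (6.23% of cells), the table's own spelling, listed none of the 7 genes. Those cells listed 0 of 14 ILC2 markers and 2 of 8 markers of NK cells and ILC1s, Eomes (92.2% against 63.0%) and Gzma (90.4% against 37.5%). They need not be the same cells as subcluster 4. Before making the subclusters the authors left out cells with marker genes of other lineages, and subcluster 4 listed none of the 20 macrophage, 12 B cell or 14 dendritic cell markers. Of these lists only 3, 1 and 1 markers were listed for any subcluster, so their absence says little. Subcluster 4 listed 2 of 8 markers of NK cells and ILC1s, Gzma (25.8% against 9.7%) and Nkg7 (30.5% against 11.7%). Subcluster 8 listed 1 macrophage marker, Ctss (57.3% against 27.0%), no B cell or dendritic cell marker, 1 endothelial marker, Pecam1 (49.4% against 27.1%), 1 plasma cell marker, Prdm1 (48.3% against 25.0%), 1 proliferation marker, Top2a (49.4% against 30.2%), and 3 of 14 ILC2 markers, Il13, Areg and Klrg1.

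**Figure D3:**
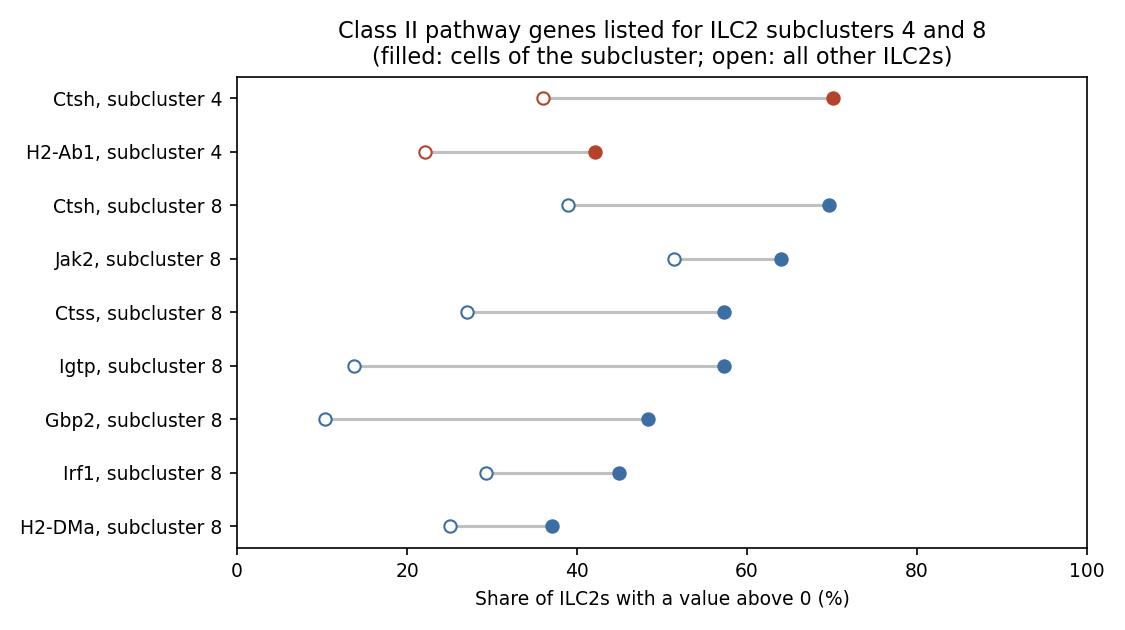
Share of ILC2s with a value above 0 (horizontal axis, %) for the class II pathway genes listed for subclusters 4 and 8; filled points are the cells of the subcluster and open points all other ILC2s. H2-Ab1 (42.1% against 22.1%) and H2-DMa (37.1% against 25.1%) have the lowest shares inside the subcluster among the genes plotted for each.

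The rest of the pathway was read from lists of genes. Of 9 antigen processing genes, which cut proteins to peptides in the endosome or restrain the cutting, 8 were listed for Macrophage, 5 for Plasma cell, 4 for Endothelium cell, 3 for MMP_LMPP and 2 for ILC1_ILC3. In Macrophage, Ctsl, a protease that trims the invariant chain, was above 0 in 97.9% against 40.8%, Ifi30, a thiol reductase of the endosome, in 95.5% against 37.3%, and Ctss, the invariant chain protease of many presenting cells, in 96.8% against 55.1%. Endothelium cell, which listed H2-Ab1 alone of the 7, also listed Ifi30 (88.0% against 39.6%), Ctsl (81.3% against 43.1%) and Lgmn (60.6% against 33.3%). In the ILC2 subcluster table, 6 of these 9 were listed, and Ctsh, an aminopeptidase, was listed for subclusters 2, 4, 6 and 8. Its share was 70.1% in subcluster 4 against 36.0%, and 69.7% in subcluster 8 against 38.9%.

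Of 8 genes for co-stimulation and class II turnover, 3 were listed for a cell type. Cd83, which keeps class II at the cell surface, was listed for Macrophage (97.9% against 40.4%), MMP_LMPP (91.1% against 42.8%), Plasma cell (87.1% against 42.8%) and ILC1_ILC3 (78.7% against 42.8%), the same 4 types as H2-Eb1. March1, a ubiquitin ligase that removes class II from the surface, was listed for Macrophage (67.7% against 20.4%) and Plasma cell (68.2% against 22.3%), the same types as Ciita. Cd86, a ligand that co-stimulates T cells, was listed for Plasma cell at 59.4% against 37.9% and for Treg, which listed none of the 7 genes, at 39.5% against 37.9%. Of 8 transcription factors of the class II module, 2 were listed in the cell type table, Ciita itself and Nfyb, a Y box binding subunit, for Prolifelation cell (80.1% against 44.4%). Among the subclusters 1 factor was listed, Creb1, for subcluster 5, with a lower share inside (19.9% against 36.9%).

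**Figure D4:**
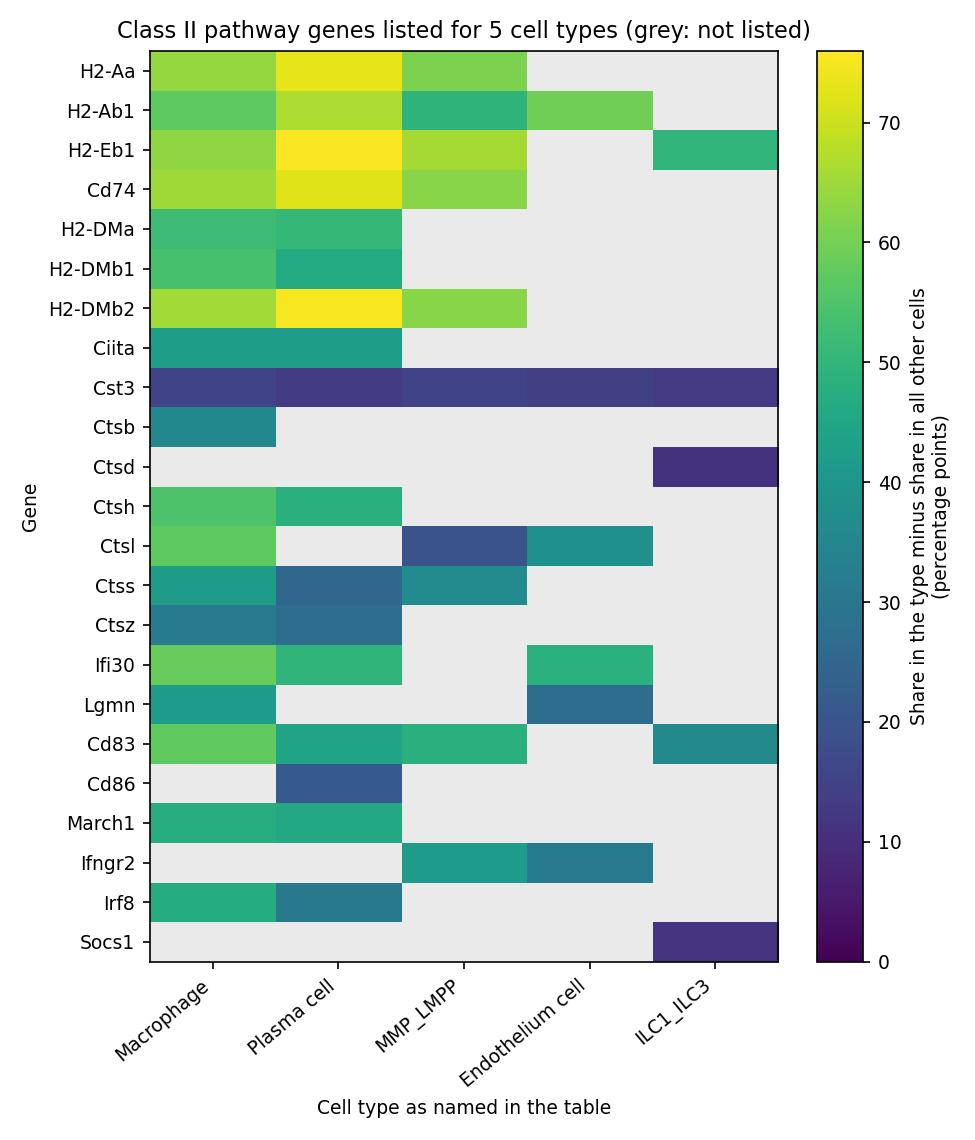
Share of cells above 0 inside a cell type minus that in all other cells (colour, percentage points) for class II pathway genes (rows) listed for any of 5 types (columns); grey marks a gene not listed. Colour fills the Macrophage and Plasma cell columns for all 7 genes, and the Endothelium cell and ILC1_ILC3 columns for 1 each.

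Interferon gamma is known as the main inducer of Ciita outside professional presenting cells. Of 10 genes on that route, 4 were listed for subcluster 8, the subcluster that listed H2-DMa. Igtp and Gbp2, GTPases that interferon induces, were above 0 in 57.3% of its cells against 13.7% of all other ILC2s and in 48.3% against 10.3%. Jak2, the receptor's kinase, was above 0 in 64.0% against 51.4%, and Irf1, a factor that acts on the Ciita promoter, in 44.9% against 29.3%. Ciita was not listed there. In the cell type table, all 5 types that listed any of the 7 genes listed 1 of the 10, beside 10.2% to 20.1% of all features. Types without any of the 7 genes listed genes of this route too. The type gdT_TypeI listed Ifng, Igtp, Irf1 and Socs1, and gdT_TypeIII_ITGAE listed Ifngr2 and Socs1. Endothelium cell and MMP_LMPP listed Ifngr2, a receptor chain (88.4% against 57.5% and 99.2% against 57.6%), and ILC1_ILC3 listed Socs1, an inhibitor of the receptor's signal (88.5% against 77.2%). Macrophage and Plasma cell listed Irf8, which was above 0 in 83.5% of Plasma cell cells against 52.9% outside. Irf8 was also listed for 3 types without any of the 7 genes, Prolifelation cell (93.2% against 50.4%), NK (91.5% against 51.6%) and ILC1 (68.4% against 52.3%). ILC2_2 listed 2 of the 10, Igtp (37.8% against 49.9%) and Irf1 (48.5% against 68.4%), both with a lower share inside.

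The genes most like each member were taken as those listed for the most similar set of types (Jaccard index, shared types over all types of either gene), ties ordered by the mean difference of their shares inside over the shared types. For H2-Aa the closest was Cd74, listed for the same 3 types at a mean difference of 1.47 percentage points, followed by H2-DMb2 at 1.50. For H2-Eb1 it was Cd83, with the same 4 types at 7.75, and then Cd74, with an index of 0.750 and a difference of 1.70. For H2-Ab1 it was Lmo2, with the same 4 types at 9.45. For H2-DMa it was Ctsz (1.65), for H2-DMb1 Ctsh (2.75) and for Ciita Ceacam1 (5.30), each listed for the same 2 types. Sharing a set of types was not particular to the pathway: 12 genes had exactly the types of H2-Aa, of which 1 was a member, and 15 had those of H2-DMa, of which 2 were members.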

How the data were processed

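Cells from 4 libraries (Chromium Single Cell 3′ kit) were processed by the authors. Per the labels, reads were aligned with Cell Ranger to mouse build mm10; the annotation they used is not given in the sources used here. The authors removed doublets and dead cells by flow cytometry, excluded immune cells with few detected genes, scaled and log transformed the counts of each cell, and clustered the merged cells in Seurat. No doublet calling from the expression data is described for these cells, and tables without cells allow none. The deposited shares (fractions of cells with a value above 0) come from the authors' marker search, and their smallest value on the higher side of a listing was 25.0% in the subcluster table and 25.2% in the cell type table. The deposited p-value columns hold the authors' tests of each gene in each cluster. They were used only through the quotient of adjusted and raw p-value, which gives the number of features tested. The deposited log2 fold changes are the authors' own comparisons and were not used.

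Cluster sizes were solved by least squares from the genes with listings in at least 2 clusters, since the outside share plus the size times the difference equals the share in all cells. The SE comes from the residuals of that fit and covers rounding only. On simulated shares the largest error was 0.0295 percentage points for the cell type table and 0.0155 for the subcluster table. The simulations held 1679 and 2622 genes, of which those listed for at least 2 clusters entered the fit. Their sizes and shares were drawn at random and not set to those of the data, so they do not give the error for the smallest types. Analyses used Python 3.11.15, numpy 2.4.6, pandas 2.3.3 and matplotlib 3.10.9. Gene positions came from GENCODE M21 and promoters from RefSeq. All 7 members are named, with the 5 genes most like each considered and pathway and marker genes from lists. Of the lists, the text names genes as examples, and a few planned genes were taken out of the lists and are not reported here. The members and lists were chosen with earlier results of these data known. The alternatives were stricter listings, other gene sets in the size fit and other rankings.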

Additional observations from a re-analysis of the deposited data

How the results depend on the processing

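When a listing also had to have a share inside of at least 50.0%, the number of the 7 genes listed for an ILC2 subcluster fell from 2 to 0. The shares were 42.1% for H2-Ab1 and 37.1% for H2-DMa. When a listing had to exceed the other cells by at least 10.0 percentage points, all 9 counts of clusters per gene and both counts of genes per table were the same. Of 21 sizes solved with other gene sets, the largest shift was 0.0220 percentage points. The share of all cells with a gene shifted by more than 0.05 percentage points in 0 of 7 genes, and the share of positive cells by more than the 95% interval of the solved size in 0 of 22 listings. Ranks within a list moved by over 1.5 times in 13 of 22 listings when ordered by the odds ratio and in 8 of 22 when ordered by the ratio of shares. By the odds ratio, H2-Aa fell from 17 to 87 and H2-Ab1 from 45 to 161 in MMP_LMPP, and the classical chains and Cd74 came to 1 in Plasma cell, where no cell is at 0. By the ratio, Ciita rose from 136 to 35 in Macrophage. No paired analysis was possible because the tables carry no value per library and a group is 1 library. The tables hold no depth or cell number. The paper gives the total number of cells in each analysis, but no counting interval was computed here. Among clusters that listed a member, MMP_LMPP (0.387% of all cells) and subcluster 8 (0.668% of ILC2s) were the smallest of their tables. Their shares thus rest on the fewest cells.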

Other observations

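Of the 8 ILC2 subclusters that listed none of the 7 genes, subclusters 1, 2, 5, 6 and 9 listed genes of antigen processing and subclusters 0, 3 and 7 did not. Subcluster 1 listed Cst3, a cathepsin inhibitor (95.6% of cells against 86.4% of all other ILC2s). Subcluster 6 listed Ctsh (69.4% against 38.0%), Lgmn, an endosomal protease (53.1% against 33.7%), and Ctss (42.8% against 26.6%). Subcluster 2 listed Ctsh (59.7% against 34.5%) and Lgmn (48.3% against 31.4%), and subcluster 9 listed Lgmn (46.9% against 34.4%) and Ctsb (66.7% against 55.2%). Subcluster 5 listed Ctsb and Ctsd although their shares were lower inside, 21.7% against 56.6% and 33.8% against 78.5%. Icosl, a co-stimulatory ligand, was listed for subclusters 0, 5 and 9, with shares of 27.2%, 9.9% and 38.3% against 24.9%, 26.2% and 25.5%.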
